A study of Mus musculus with 4 samples.

Results

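The insulin, IGF and glucose uptake genes are 10 genes of the route by which insulin and the insulin-like growth factors act on muscle: Igf1, Igf2, Igfbp5, Insr, Igf1r, Irs1, Irs2, Slc2a4, Tbc1d1 and Tbc1d4. An open-chromatin peak was counted for a gene when the authors' annotation named that gene as the nearest to the peak. By this rule 178 of the 120839 peaks in 4 mouse muscles belonged to the genes, with 42 among the 30136 peaks called in EDL, 64 among 40337 in Quad, 42 among 28784 in Sol and 30 among 21582 in Dia. A peak was found for 9 of the 10 genes, among 17157 genes with a peak in any list, and Igf2 had none.

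The muscles came from wild type mice of the C57BL/6 strain, named C57BL/6J in the study's methods, and the labels name no transgene or treatment in any group. The study's methods describe males obtained as young adults. EDL is the extensor digitorum longus and Quad the quadriceps, both fast and largely glycolytic limb muscles, Sol is the slow oxidative soleus, and Dia is the diaphragm, which contracts throughout life. Chromatin was profiled by ATAC-seq (assay for transposase-accessible chromatin, in which a transposase cuts open DNA and leaves sequencing adapters there) on pulverised frozen tissue. Each muscle is represented by 1 library described as pooled, so there was no replicate, no test was made between muscles, and every difference below describes these libraries. The tissue was whole muscle, and a weaker peak from fewer nuclei of a cell type cannot be told apart from less open chromatin per nucleus.

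Insulin and the IGFs bind receptor tyrosine kinases at the cell surface, and the receptors phosphorylate the adaptors IRS1 and IRS2, which recruit phosphatidylinositol 3-kinase and so switch on the kinase AKT. In muscle, AKT phosphorylates the Rab GTPase-activating proteins TBC1D4 and TBC1D1, releasing their hold on vesicles that carry the glucose transporter GLUT4, the product of Slc2a4, to the surface. Contraction reaches the same step through AMP-activated protein kinase, mainly at TBC1D1, and in mouse muscle TBC1D1 protein is known to be more abundant in fast glycolytic fibres and TBC1D4 protein in the soleus.

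Each peak carries a score, taken here as the number of sequenced tags in it scaled by library size, since low scores fell in whole steps; the scaling total is not stated. To compare lists, the score was ranked within its own list and given as a percentile, where 100 is the strongest peak of that list. Where peaks of different lists overlapped by at least 1 bp they were joined into a region, and a missing peak says only that the peak caller placed none at that position. Score ranges in brackets are exact 95% Poisson intervals from the tags that the step implies, and they cover counting error only.

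Sequences of regions that some lists held and others lacked, and of 2 regions that all 4 held, are given first, from GRCm38.p6 (mm10), plus strand, 5′ to 3′. Capitals mark matches, on either strand, to 1 of 6 motifs: the MEF2 motif (CTA, 4 bases of A or T, TA, then A or G), the FoxO core TGTTTAC, the E-box CAGCTG that myogenic factors bind, the nuclear receptor site AAGGTCA, the NFAT site TGGAAA and the AP-1 site TGANTCA. The first set holds the promoter peaks of Slc2a4, which took 3 positions in the lists: the Quad peak nearest the start site (chr11:69948244-69948432), the EDL peak (chr11:69948501-69948709) and the Sol peak (chr11:69948872-69949078). The EDL and Sol peaks were added to this set after their values were seen.
Slc2a4 Quad: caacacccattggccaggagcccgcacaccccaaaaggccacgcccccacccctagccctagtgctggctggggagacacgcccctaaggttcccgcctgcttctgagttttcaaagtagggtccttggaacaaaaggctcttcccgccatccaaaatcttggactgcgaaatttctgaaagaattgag
Slc2a4 EDL: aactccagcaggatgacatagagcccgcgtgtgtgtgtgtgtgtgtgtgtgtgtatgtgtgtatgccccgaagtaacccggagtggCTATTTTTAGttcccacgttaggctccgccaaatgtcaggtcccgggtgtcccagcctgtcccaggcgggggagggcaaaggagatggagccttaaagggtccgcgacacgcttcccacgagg
Slc2a4 Sol: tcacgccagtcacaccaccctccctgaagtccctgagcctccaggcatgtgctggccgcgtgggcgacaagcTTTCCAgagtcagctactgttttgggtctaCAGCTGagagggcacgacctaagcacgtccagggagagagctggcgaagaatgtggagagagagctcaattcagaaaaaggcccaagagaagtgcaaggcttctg

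The second set holds, in order, the strongest region of the genes found in Quad and not in Sol (upstream of Irs2, chr8:11009528-11009716), the strongest found in Sol and not in Quad (intron 1 of Tbc1d4, chr14:101527651-101527857), the strongest outside promoters that all 4 lists held (intron 2 of Insr, chr8:3221155-3221361, as called in Sol) and, chosen after its values were seen, the strongest Tbc1d1 peak of EDL (intron 2, chr5:64197008-64197216).
Irs2 Quad: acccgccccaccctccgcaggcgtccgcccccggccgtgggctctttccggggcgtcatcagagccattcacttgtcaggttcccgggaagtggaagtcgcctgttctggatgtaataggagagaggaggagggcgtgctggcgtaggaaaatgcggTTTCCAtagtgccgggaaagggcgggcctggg
Tbc1d4 Sol: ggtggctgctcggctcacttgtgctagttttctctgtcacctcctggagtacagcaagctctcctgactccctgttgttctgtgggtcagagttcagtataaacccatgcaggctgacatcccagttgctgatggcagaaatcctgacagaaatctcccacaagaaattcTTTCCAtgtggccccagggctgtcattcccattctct
Insr Sol: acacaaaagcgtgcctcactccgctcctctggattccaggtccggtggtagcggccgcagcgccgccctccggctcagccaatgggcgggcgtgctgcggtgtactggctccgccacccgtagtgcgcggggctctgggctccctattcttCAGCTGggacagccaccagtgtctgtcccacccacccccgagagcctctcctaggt
Tbc1d1 EDL: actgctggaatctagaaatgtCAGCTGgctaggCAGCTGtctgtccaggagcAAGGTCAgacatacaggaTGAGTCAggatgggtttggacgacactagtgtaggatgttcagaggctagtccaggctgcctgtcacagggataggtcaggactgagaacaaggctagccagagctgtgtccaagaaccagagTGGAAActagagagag

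The Slc2a4 promoter sequences differed in what they held. The EDL peak contained the MEF2 motif, centred at -394.5 bp from the start site, and MEF2 proteins are known regulators of the GLUT4 gene in muscle. The Sol peak contained an E-box at -779.5 bp and an NFAT match at -749.5 bp. A second Quad promoter peak, centred at -794 bp and not shown, contained the same E-box and NFAT match. The Quad peak nearest the start site contained none of the 6 motifs. The Tbc1d1 peak held 2 E-boxes and 1 match each of the nuclear receptor, AP-1 and NFAT motifs, while the Irs2 and Tbc1d4 peaks each held 1 NFAT match and the Insr peak 1 E-box. A match is a run of letters and not evidence of binding.

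The lists differ in length and width, which bears on every count. Peaks spanned 188 bp in Quad to 232 bp in Dia (end minus start), no peak centres within a list lay closer than 290 to 341 bp, and the weakest peak held 25 tags in Quad and 32 to 36 in the other lists. The genes took 1.39 peaks per 1000 in EDL, 1.59 in Quad, 1.39 in Dia and 1.46 in Sol. With only the 20000 strongest peaks of each list, they had 34 EDL, 37 Quad, 33 Sol and 29 Dia peaks, so most of the surplus in Quad came from peaks ranked below that. The labels were checked on 6 muscle genes: the promoters of Ckm (creatine kinase) and Des (desmin) had a peak in all 4 lists, that of Acta1 (skeletal actin) in all but Sol, that of Myod1 (a myogenic factor) in all but Dia, the promoter of Myh4 (the fastest myosin) in EDL and Quad alone, and Myh7 (slow myosin) had peaks in Sol alone, 2 of them and none at the promoter.

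**Figure D1:**
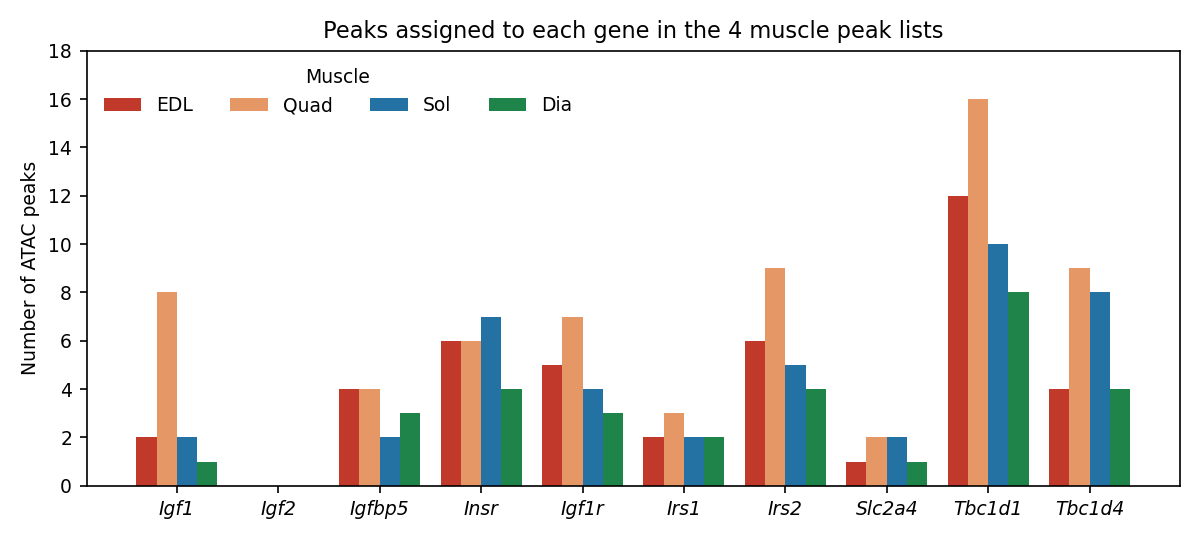
Number of ATAC peaks (vertical axis) assigned to each of the 10 genes (horizontal axis) in EDL, Quad, Sol and Dia, with 1 library per muscle. Tbc1d1 has the most peaks in every list, from 8 in Dia to 16 in Quad, Igf1 has 8 in Quad and at most 2 elsewhere, and Igf2 has none.

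Most of the peaks lay inside gene bodies, and a smaller share than in the lists as a whole lay near a start site. Intragenic peaks made up 62.5% to 66.7% of the genes' peaks in the 4 lists, against 31.9% to 42.7% of all peaks. Between 52.4% and 57.1% lay within 50 kb of the start site they were assigned to, against 77.0% to 83.7% of all peaks. The genes are long, with Igf1r at 281 kb, Tbc1d1 at 195 kb, Tbc1d4 at 167 kb and Insr at 158 kb, and length was not adjusted for. Promoter peaks, which the authors placed between 1 kb upstream and 100 bp downstream of a start site, numbered 7 in EDL, 10 in Quad, 6 in Dia and 8 in Sol.

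The 178 peaks formed 86 regions. All 4 lists had a peak in 17 of them (19.8%), against 26.9% of all 53883 regions, and 42 (48.8%) were found in 1 list alone, against 42.6% of all. Quad alone accounted for 24 of the 42. These 24 were 27.9% of the 86 regions, against 22.7% of all regions found in Quad alone. Quad had a peak and Sol none in 32 of the 86 (background 34.5%), and Sol had a peak and Quad none in 10 (background 13%). These shares lie near the background. For 7 of the 42 single-list regions a neighbouring peak from a different list was at most 500 bp away, and with peaks joined within that distance 21 of 78 regions were in all 4 lists. The 24 regions of Quad alone were weak, with a median percentile of 28.0, beside 23.4 for all regions of Quad alone.

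By gene, peaks were more numerous in Quad than Sol for 7 of the 10 genes and for 45.7% of all genes with a peak, and more numerous in Sol for 1, Insr, and for 12.4% of all. Among the 20000 strongest peaks of each list the counts were 4 and 1 of the 10 genes, beside 2968 and 3007 of all genes, so over all genes the surplus in Quad was gone at that setting. The 1 gene with more in Sol was then Tbc1d4, with 8 in Sol and 5 in Quad, and Insr had 6 in each. A promoter peak was present in all 4 lists for 6 of the 10 genes, namely Insr, Igf1r, Irs1, Irs2, Slc2a4 and Tbc1d1, and for 40.8% of all genes with a peak.

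Neither the ligand genes nor Igfbp5 had a promoter peak in any list. Igf1, which encodes a growth factor made in liver and in muscle itself, had 2 EDL, 8 Quad, 2 Sol and 1 Dia peaks, and no region of it was found in all 4 lists. Of its 10 regions 7 were called in Quad alone, and 5 of these were intergenic, between -142.8 and -40.3 kb from the first start site, at percentiles of only 4.70 to 20.8. The stronger Igf1 regions were intronic. The region 43.8 kb downstream of the first start site lay at percentile 37.0 in EDL, 64.0 in Quad and 55.3 in Sol, with no peak in Dia. Its peaks held an E-box and an NFAT match in each of those 3 lists. Another in intron 1, 4.8 kb downstream, was called in Quad alone at percentile 69.8, with a score of 9.09 [7.10 to 11.5].

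Igf2, an imprinted growth factor gene expressed mainly before birth, had no peak assigned to it and none overlapping its body in any list. The nearest peaks on its 3′ side lay 20.6 to 20.7 kb away in EDL, Quad and Sol, at percentiles of 76.3, 71.9 and 66.7, and the authors assigned them to Mir483, a microRNA gene inside Igf2. In Dia the nearest peak on that side was 366 kb away. On the other side Quad had a weak peak 8.88 kb away that was assigned to Ins2, an insulin gene. Igf2 was the only one of the 10 genes without a peak of its own.

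Igfbp5, which encodes a secreted protein that binds IGFs and alters their access to the receptor, had 4 EDL, 4 Quad, 2 Sol and 3 Dia peaks. Its intron 1 held a pair of regions that the lists divided. The region 7.5 kb downstream was called in EDL (percentile 54.4), Quad (71.2) and Sol (63.9) and not in Dia, and its peaks held an NFAT match in each of those 3. The region 3.6 kb downstream was called in EDL (68.4) and Dia (68.7) and in neither Quad nor Sol. EDL was the only list with both. Upstream, the region at -62.4 kb carried the MEF2 motif and an E-box in EDL, Quad and Sol, at percentiles of 40.9, 20.8 and 27.7.

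Of the receptors, Insr, the insulin receptor gene, had 6 EDL, 6 Quad, 7 Sol and 4 Dia peaks, and 3 of its 8 regions were in all 4 lists. Its promoter lay at percentile 71.3 in EDL, 86.2 in Quad, 75.1 in Dia and 83.7 in Sol. All 4 promoter peaks contained the FoxO core 61 bp and an E-box 43.5 bp downstream of the start site, and FoxO1 is a known activator of this gene in fasting. Among all promoter peaks the FoxO core occurred in 1.51% to 1.80% per list, and the E-box in 11% to 12.4%.

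The strongest Insr region was not the promoter in Sol and Dia but intron 2, 58.4 kb downstream. Its score was 9.62 [7.83 to 11.7] in EDL, 12.9 [10.5 to 15.7] in Quad, 12.2 [10.1 to 14.6] in Dia and 15.0 [12.8 to 17.5] in Sol. Sol was highest, and its interval did not overlap that of EDL. A rank difference at least as large towards Sol was found in 10.3% of all regions that EDL and Sol share. The region at 63.9 kb in the same intron was highest in Sol too, at percentile 73.2, with 59.5 in EDL, 63.0 in Quad and 48.7 in Dia. At 42.1 kb Sol was instead the lowest of the lists with a peak, at 23.4, with 51.6 in EDL, 55.7 in Quad and no peak in Dia.

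Igf1r, the IGF1 receptor gene, had 5 EDL, 7 Quad, 4 Sol and 3 Dia peaks. The promoter region at -0.4 kb was at percentile 76.7 in EDL, 81.7 in Quad and 75.2 in Sol, whereas the Dia peak was centred at -818 bp, at percentile 62.1, with a gap of 160 bp to the nearest peak of another list. Quad also had a second promoter peak 21 bp downstream of the start site at percentile 66.6. The peaks inside Igf1r that were assigned to it were weak, at or below percentile 55.7.

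The stronger peaks inside the Igf1r body were assigned to Pgpep1l, a neighbouring gene whose start site is closer. In intron 2 a region lay at percentile 89.9 in EDL, 89.8 in Quad, 84.6 in Dia and 85.3 in Sol. In intron 19 a region lay at 92.7 in EDL, 83.6 in Quad, 70.4 in Dia and 89.9 in Sol, and in intron 20 another at 63.2, 71.9, 34.1 and 49.99 in the same order. In each list all 3 ranked above the best intronic peak assigned to Igf1r itself, which stood at 49.7 in EDL, 55.7 in Quad, 13.2 in Dia and 33.4 in Sol.

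The strongest peak of the 10 genes in every list was an adaptor promoter, that of Irs1 in Quad and that of Irs2 elsewhere. Irs1 encodes the main insulin receptor substrate of muscle, and its promoter scored 14.2 [12.0 to 16.7] in EDL, 19.1 [16.1 to 22.4] in Quad, 14.8 [12.5 to 17.4] in Dia and 11.8 [9.77 to 14.0] in Sol. The Quad interval did not overlap that of Sol, but 29.0% of all regions that Quad and Sol share ranked at least as much higher in Quad. The promoter of Irs2, the second major adaptor, was close in all lists, at percentile 91.3 in EDL, 93.9 in Quad, 89.7 in Dia and 90.9 in Sol.

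Away from the promoters the adaptors had few strong regions. In the Irs1 intron, 8 kb downstream, Quad, Sol and Dia had a peak at percentiles of 72.6, 71.1 and 70.9, and EDL had none. Upstream of Irs2, a region at -81 kb was in all 4 lists at 85.5 in EDL, 82.1 in Quad, 64.2 in Dia and 83.1 in Sol, with an E-box in each peak. The Irs2 region at -16.7 kb also held an E-box in each of the 4 lists but ranked low, at 18 to 35.7. The Irs2 sequence shown above, at -1192 bp and percentile 86.5, was called in Quad alone, 399 bp from the nearest peak of another list. It lies in intron 1 of the non-coding transcript 9530052E02Rik, which also received a weak peak each of EDL (22.3) and Quad (46.5) inside the single Irs2 intron.

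Slc2a4, which encodes GLUT4 and spans 5.65 kb, had 1 peak in EDL and Dia and 2 in Quad and Sol. Every list had a promoter peak, but at different positions. The EDL peak was centred at -408 bp with a score of 13.2 [11.1 to 15.6]. Quad had a peak at -141 bp with 13.4 [11 to 16.3] and another at -794 bp with 10.4 [8.24 to 12.9]. The Sol peak was at -778 bp with 12.6 [10.6 to 15.0], and the Dia peak at -895 bp with 9.37 [7.56 to 11.5]. The Dia peak stood at percentile 64.9, below the median of 74.1 for all Dia promoter peaks. The distal Quad peak stood at 76.4, below the Quad promoter median of 81.3. The other Slc2a4 promoter peaks were above the promoter median of their own list.

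Sol, Dia and the distal Quad peak overlapped and formed 1 region, while the EDL peak and the proximal Quad peak overlapped no other and were 69 bp apart. EDL and Sol, the fast and the slow hindlimb muscle, thus shared no Slc2a4 peak, although both ranked high in their lists, at percentiles of 85.3 and 83.4. The lists give no signal between peaks, so separate openings cannot be told apart from fixed-width calls on 1 broad stretch. Sol also had the one Slc2a4 peak outside the promoter, at -7696 bp and percentile 40.5, with a nuclear receptor and an AP-1 match. The MEF2 motif in the EDL promoter peak was found in 1.06% of EDL promoter peaks and in 4.40% of all EDL peaks.

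**Figure D2:**
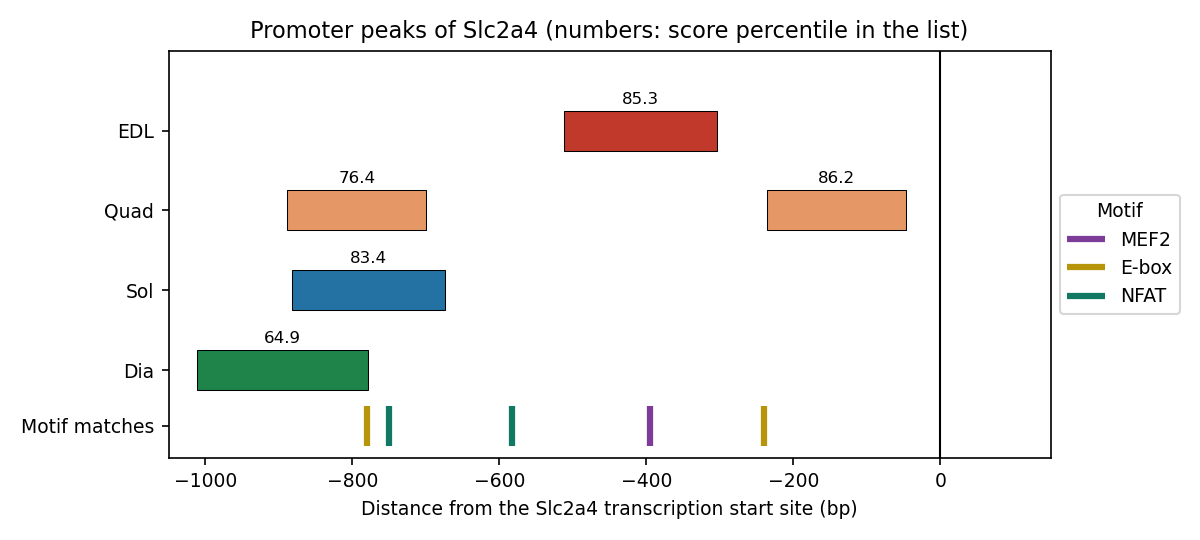
Promoter peaks of Slc2a4 in EDL, Quad, Sol and Dia (rows) drawn to scale against distance from the start site in bp (horizontal axis, negative is upstream), with the score percentile above each bar and motif matches as ticks in the lowest row. The EDL bar, centred at -408 bp, covers the MEF2 tick and overlaps none of the other bars. The Sol bar and the distal Quad bar both cover the distal E-box and NFAT ticks.

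Tbc1d1 had the most peaks of the 10 genes, with 12 in EDL, 16 in Quad, 8 in Dia and 10 in Sol, counts that at most 1.0% of the genes with a peak matched or exceeded in any list. It had 20 regions, 6 of them in all 4 lists. The strongest of them lay in intron 2, upstream of a second start site, in EDL and Quad, and in intron 16 in Sol and Dia. At 36.9 kb downstream of the first start site the score was 14.1 [11.9 to 16.6] in EDL, 14.5 [11.9 to 17.4] in Quad, 5.34 [4.0 to 6.98] in Dia and 7.84 [6.23 to 9.73] in Sol. EDL and Quad were nearly equal, and the intervals of both lay above those of Sol and Dia.

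EDL ranked above Sol, and Sol above Dia, at the neighbouring regions as well. The region at 20.5 kb was at percentile 81.1 in EDL, 75.2 in Quad, 13.2 in Dia and 45.9 in Sol. The region at 38.6 kb was at 80.0 in EDL, 72.6 in Quad, 21.7 in Dia and 67.9 in Sol. The first promoter, at -0.3 kb, was at 67.1 in EDL, 68.2 in Quad and 48.0 in Sol and had no Dia peak, and neither had the region at -15.7 kb, which was at 67.8, 60.1 and 42.7. Quad alone had further peaks in intron 2 at 28 kb (32.4), 33.3 kb (67.4) and 36.3 kb (81.3), the last 309 bp from the nearest peak of another list.

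The 3′ part of Tbc1d1 did not share this order. The second promoter, 70.1 kb downstream of the first start site, was at percentile 42.1 in EDL, 69.0 in Quad, 28.1 in Dia and 63.2 in Sol. The region at 166.3 kb in intron 14 was at 75.4 in EDL, 84.0 in Quad, 52.5 in Dia and 76.2 in Sol, and that at 176.7 kb in intron 16 was highest in Sol, at 77.9, with 63.2 in EDL, 67.4 in Quad and 69.8 in Dia. In all, EDL ranked above Sol in 5 of the 8 Tbc1d1 regions they shared, the 5 that lie upstream of the second promoter, and below it in the other 3. Peaks at 166.3 kb held an E-box and an AP-1 match in every list.

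Tbc1d4, which encodes the partner protein also called AS160, had 4 EDL, 9 Quad, 8 Sol and 4 Dia peaks. The region in intron 8, 125.8 kb downstream, scored 9.14 [7.39 to 11.2] in EDL, 8.32 [6.42 to 10.6] in Quad, 5.34 [4.0 to 6.98] in Dia and 11.7 [9.68 to 13.9] in Sol. The region in intron 1 at 76.7 kb was at percentile 50.7 in EDL, 65.8 in Quad, 36.8 in Dia and 73.2 in Sol. Sol was highest and Dia lowest at both, although the Sol interval overlapped those of EDL and Quad at both regions. In intron 1 the score intervals were 5.51 to 8.83 in EDL, 6.54 to 10.8 in Quad and 8.38 to 12.4 in Sol.

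Sol and Quad also shared Tbc1d4 regions that EDL lacked, at 22.9, 40.1 and 68.6 kb in intron 1, and Sol alone had a peak at 71.1 kb (39.3) and at 81.4 kb (53.7), the latter shown above. EDL and Quad in turn shared a region at 43.3 kb (30.1 and 23.4) that Sol lacked, and Quad alone had a peak at 91.2 kb (64.0) and at 114.1 kb (4.70). At the 5′ end, Quad (percentile 71.9) and Sol (74.7) had promoter peaks 37 and 43 bp downstream of the start site. The EDL (57.9) and Dia (69.8) peaks were centred 297 and 336 bp downstream, in the 5′ UTR class of the annotation, so Tbc1d4 was not counted with a promoter peak in all 4 lists.

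**Figure D3:**
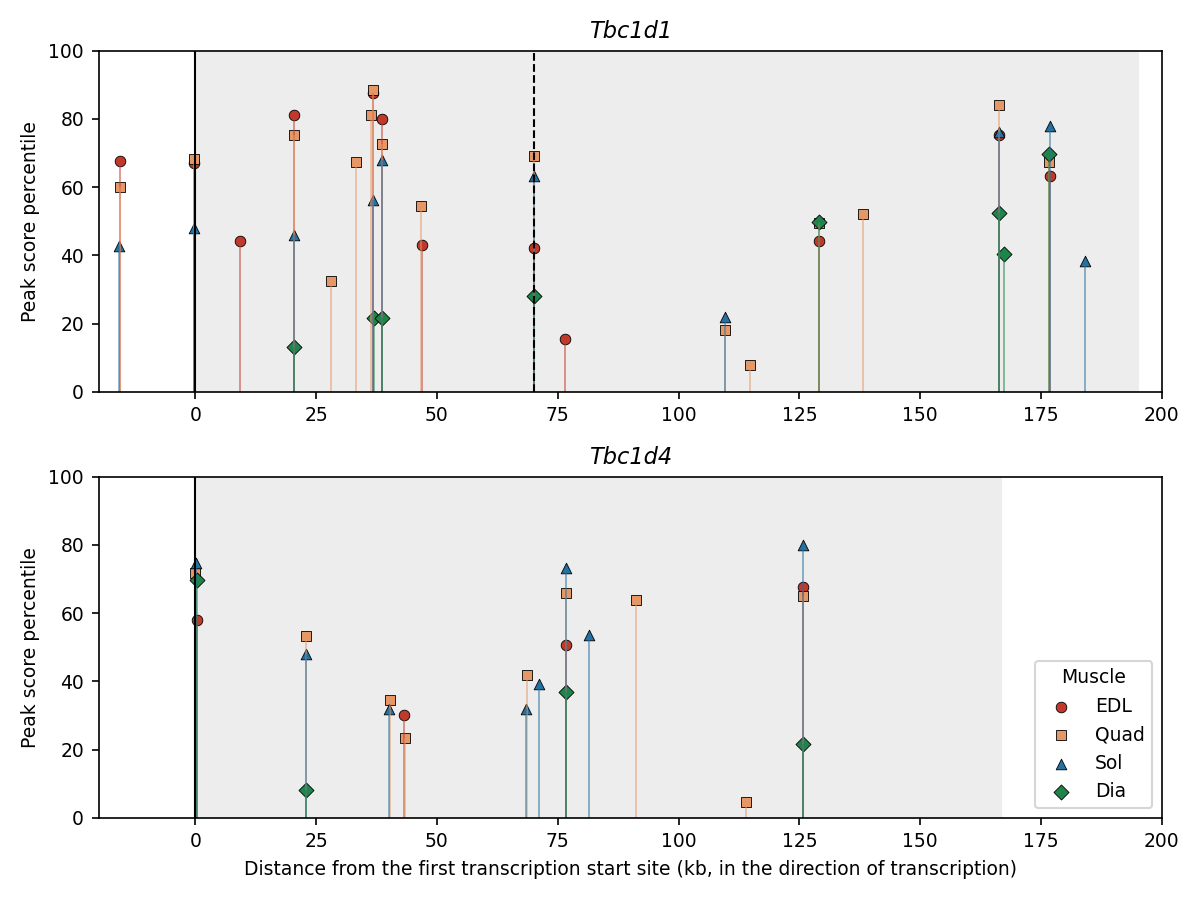
Peak score percentile within each list (vertical axis) against distance from the first transcription start site in kb (horizontal axis) for Tbc1d1 and Tbc1d4, with 1 symbol per peak, the gene body shaded and the second Tbc1d1 start site dashed. At the 3 positions between 20.5 and 38.6 kb of Tbc1d1 where all 4 lists have a peak, the EDL and Quad symbols stand above those of Sol and Dia, and the Sol symbol stands highest at 76.7 and 125.8 kb of Tbc1d4.

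To set the ranks against the lists as a whole, a shared region was counted as different when its percentile was at least 25 points higher in 1 list, a limit chosen after the values were seen. EDL was higher than Sol by this limit in 5 of the 26 regions of the 10 genes that both held (19.2%), against 5.46% of all regions shared by EDL and Sol, and Sol was higher in none, against 5.78%. The 5 were the Tbc1d1 regions at -15.7 kb, 20.5 kb and 36.9 kb, the Igf1r region at 78.9 kb and the Insr region at 42.1 kb. Quad was higher than Sol in 3 of 32, against 12.8% of all, and Sol higher than Quad in none, against 3.07%. Quad was higher than EDL in 6 of 33, against 12.9% of all, and EDL higher than Quad in 1, against 1.86%. Regions of 1 gene are not independent, and Tbc1d1 supplied 3 of the 5 for EDL and 2 of the 3 for Quad.

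Dia ranked some of the genes' regions low, mostly those of Tbc1d1 and Tbc1d4. EDL was at least 25 points higher than Dia in 5 of 22 shared regions (background 12.7%), Quad in 10 of 23 (background 20.9%) and Sol in 8 of 21 (background 12.4%). Most of these regions belonged to Tbc1d1 and Tbc1d4. The exceptions were Igf1r at 78.9 kb for EDL, Igfbp5 at -11.1 kb and Igf1r at 69.7 kb for Quad, and Insr at 32.3 kb for Sol. The Quad and Dia peaks of that Igfbp5 region lay 8 bp apart and were joined only through the EDL peak. No region of Irs1, Irs2 or Slc2a4 passed the limit against Dia. Dia was higher by that limit in no region against EDL (background 2.93%), Quad (background 1.18%) or Sol (background 2.18%). Of the 17 regions in all 4 lists Dia had the lowest percentile in 11, and of all 14497 such regions in 52.3%. Among the 13 of them outside promoters the median percentile in Dia was 26.5, against 45.3 for all such regions, while it was 67.8 against 61.0 in EDL, 67.4 against 67.4 in Quad and 73.2 against 60.3 in Sol.

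Some markers of muscle fibres also ranked lower in Dia. The promoters of Ckm, Acta1 and Des were at percentiles of 57.6 to 69.3 in Dia and 75.4 to 95.3 in EDL and Quad. In Sol, Ckm stood at 90.9 and Des at 77.0, and Acta1 had no promoter peak. Of the 6 muscle markers 5 had a promoter peak in EDL, 5 in Quad, 3 in Dia and 3 in Sol. Endothelial markers had a promoter peak for 4 of 4 genes in EDL, Quad and Sol and for 2 of 4 in Dia. The 4 leukocyte and the 2 satellite cell markers had none in any list, the 4 fibroblast markers had 1 (Dcn in Sol), and of the 3 adipocyte markers Fabp4 had 1 in EDL and Quad. The part of cell make-up in the low Dia ranks was not tested.

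**Figure D4:**
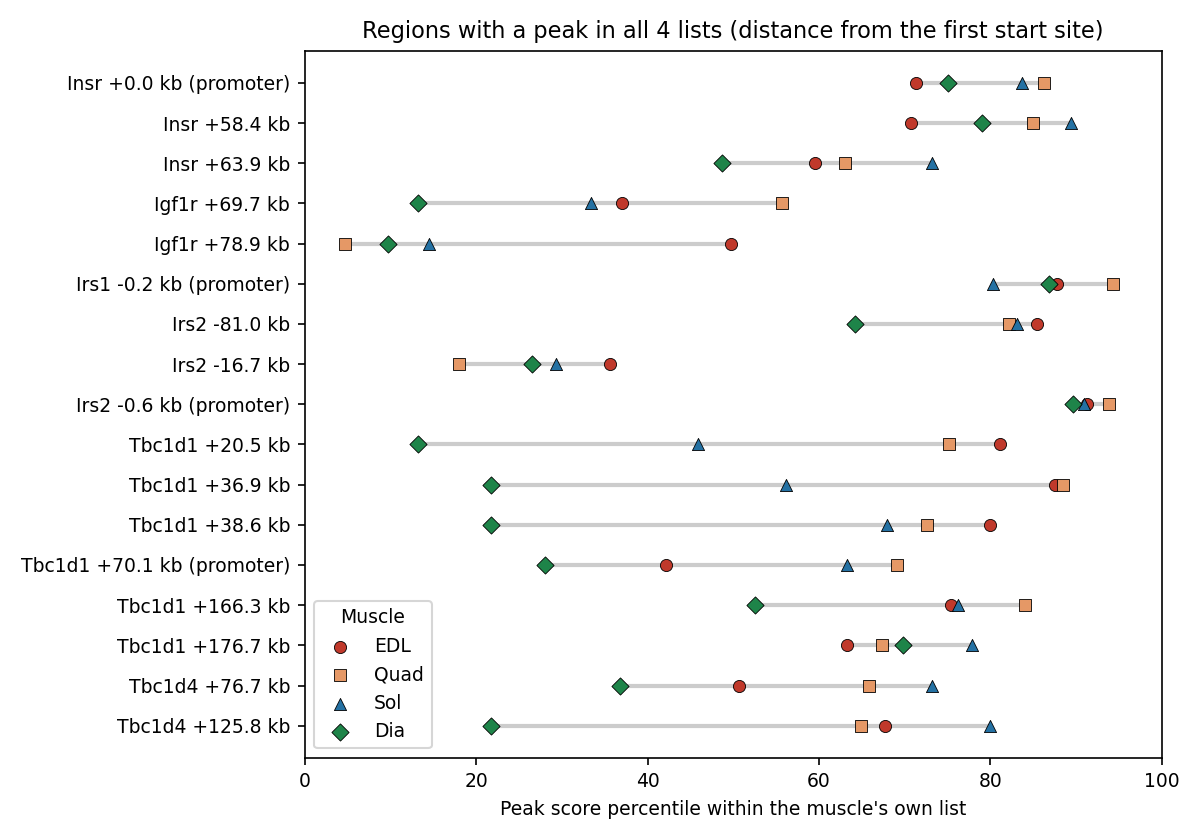
Peak score percentile (horizontal axis) in EDL, Quad, Sol and Dia for the 17 regions with a peak in all 4 lists, each row a region named by gene and distance from the first start site, with a grey bar from the lowest to the highest list. The Irs2 promoter spans the narrowest range, 89.7 to 93.9, and the Tbc1d1 region at 20.5 kb the widest, 13.2 to 81.1.

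**Figure D5:**
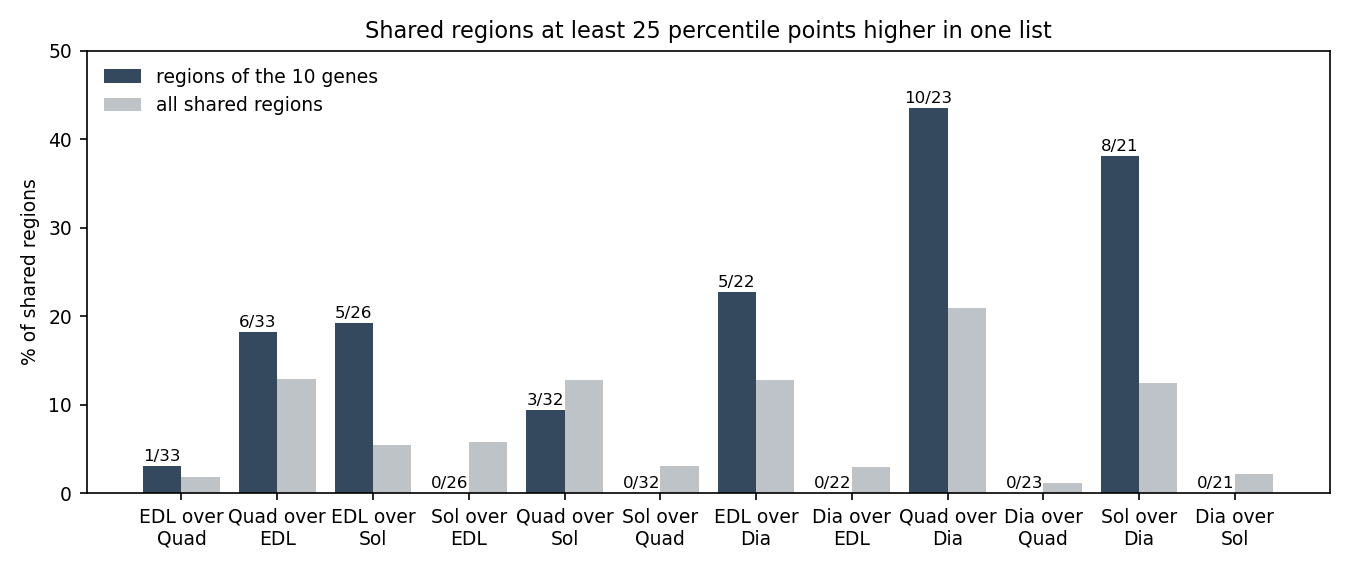
Share of regions held by both lists of a pair that ranked at least 25 percentile points higher in the first list (vertical axis, %), for regions of the 10 genes (dark bars, with counts) and for all shared regions (light bars). The dark bar exceeds the light one for EDL over Sol, at 5 of 26, for each list over Dia, and in both directions between EDL and Quad, at 6 and 1 of 33. It is lower for Quad over Sol, at 3 of 32, and is 0 for Sol over EDL or Quad and for Dia over each list.

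Motif shares over the genes' peaks were read only against their lists. The E-box was in 13 of 42 peaks in EDL, where 20.8% of all peaks held it, in 17 of 64 in Quad (19.1%), 15 of 42 in Sol (20.3%) and 7 of 30 in Dia (19.5%). The nuclear receptor site was in 3 of 42, 6 of 64, 3 of 42 and 2 of 30, where 4.18% to 4.78% of all peaks held it. The MEF2 motif was in 3, 2, 1 and 1 of the peaks in the same order, with 3.09% to 4.40% of all peaks, the FoxO core in 3, 3, 3 and 2 (2.46% to 3.26%), the NFAT site in 6, 12, 5 and 4 (16.4% to 18%) and the AP-1 site in 4, 7, 6 and 4 (8.46% to 9.14%). Peaks of overlapping regions repeat the same bases, so these counts are not independent.

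Of 50 other genes of insulin signalling and glucose uptake, 49 had a peak in some list and Slc2a3, the glucose transporter typical of neurons, had none. A promoter peak in all 4 lists was found for 27 of the 50 (54%), against 40.8% of all genes with a peak. Quad had more peaks than Sol for 24 genes (48%, against 45.7% of all), Sol more than Quad for 8, and the numbers were equal for 18. With the 20000 strongest peaks of each list these counts were 12, 12 and 26, and over all genes Quad had more for 2968 and Sol for 3007. Grb10, an adaptor that restrains insulin and IGF1 receptors, had 8 peaks in Quad and 4 in Sol. Prkag3, the AMP-activated protein kinase subunit typical of glycolytic muscle, had 5 and 1. Next came 9 genes tied at 3 peaks more in Quad, with Akt2, the AKT form most tied to glucose uptake, at 5 and 2 and Hk2, the hexokinase of muscle, at 6 and 3. Towards Sol, Sos1, a Ras activator, had 2 peaks in Quad and 4 in Sol, and 7 genes differed by 1 peak, among them Gys1 (muscle glycogen synthase, 1 and 2), Igfbp2 (an IGF binding protein, 0 and 1) and Prkaa2 (a catalytic subunit of AMP-activated protein kinase, 5 and 6). With the 20000 strongest peaks, Sos1 had 2 in each list, Igfbp2 had 0 in each, and Grb10 had 2 in Quad and 1 in Sol. At that setting Prkag3 had 4 and 1, Akt2 4 and 2, Hk2 5 and 2, Gys1 1 and 2 and Prkaa2 3 and 4.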

How the data were processed

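Per the labels and the study's methods, ATAC-seq was performed on 30 mg of powdered frozen muscle, and 42-bp read pairs were aligned to mm10 with Bowtie2 at default settings. HOMER kept 1 tag per position, called fixed-width peaks in each library and annotated each to the nearest start site. The deposited lists hold, per peak, a position, an annotation, a distance and a score, taken here as tags scaled by library size, with the scaling total not given in the sources used here. Shift of the reads for the transposase, and removal of mitochondrial or repeat reads, are not given in the sources used here. Default alignment places reads with several equal positions at 1 of them, so peaks in repeats are uncertain.

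Peaks were taken by the authors' gene name, ranked by score within each list and merged at 1 bp overlap with pandas 2.3.3. The worth of 1 tag was the step of which at least 99.2% of scores under 10 were whole multiples (tolerance 0.005). For all 178 peaks the assigned transcript was found in RefSeq, and for 154 peaks the distance pointed to a start no more than 100 bp from the RefSeq one. The other 24 were the peaks of Irs2, whose distances point to a start 499 bp from it. Gene spans are those of GENCODE vM21. Bases were read from RefSeq's GRCm38.p6 with pysam 0.24.0 and samtools 1.23.1. The merging of peaks, the pattern of lists per region and the search for the tag step were tested on simulated data. The 10 genes, the 50 other pathway genes, the cell type markers, the motifs and the rule for the sequences shown (the strongest Slc2a4 promoter peak, and the strongest regions in Quad and not Sol, in Sol and not Quad, and outside promoters in all 4 lists) were chosen with earlier results of these data known. Of the other pathway genes, the 4 with the largest Quad to Sol difference each way, ties by alphabet, and those without a peak are named.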

Additional observations from a re-analysis of the deposited data

How the results depend on the processing

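Of 26 recounts under other settings, 19 stayed within 1.5 times the reported count and 7 moved further. Restricting peaks to those within 50 kb of the assigned start site left 24 EDL, 36 Quad, 22 Sol and 17 Dia peaks, 46 merged regions and 8 regions in all 4 lists. With the 20000 strongest peaks of each list, Quad held 37. Counting every peak in the gene bodies and their 5 kb flanks gave 37 EDL, 55 Quad, 37 Sol and 28 Dia peaks. Requiring 50% reciprocal overlap gave 96 regions with 14 in all 4 lists, and joining peaks within 500 bp, a setting added after the data were seen, gave 78 and 21. A promoter limit of 1 kb on either side raised the genes with a promoter peak in all 4 lists from 6 to 7, by Tbc1d4. No paired analysis was possible because each muscle has 1 library. Depth limits absence: the weakest called peak held 25 to 36 tags, and open chromatin below that was not detectable in these lists.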
